A study of Mus musculus with 6 samples.

Results

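Of the 35556 transcript clusters of an Affymetrix mouse gene array, 1621 carried more than 1 gene symbol in the platform annotation, 21789 carried 1 symbol and 12146 carried none. A transcript cluster is the set of probes summarised into 1 value, and a cluster with several symbols gives a single intensity for all the genes it lists, so the share of each gene in that intensity is unknown. A cluster entered this set by its annotation alone, without use of any intensity. The set and the gene families were chosen with earlier results of these data known, and some clusters were named after their values were seen. The clusters were measured in 2 groups of 3 arrays, HBC and LBC. Both came from immortalised stromal vascular fraction (SVF) cells, the cells other than mature adipocytes that are released from fat tissue, here of inguinal white fat from 129SVE mice, all male. The cells had been stained with FcsFNDC4, an Fc-tagged soluble form of the hepatokine FNDC4, and sorted by flow cytometry 20 times, for high binding of that protein (HBC) or for low binding (LBC), and both groups were taken at passage 20. The 3 arrays of a group are technical replicates of 1 sorted population, so p-values measure only the technical spread and the spread between independent sorts is unmeasured. LBC replicates 2 and 3 carry HBC in their source name but LBC in title, description and phenotype, and they were grouped by title.

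Gene families that arose by local duplication keep long stretches of near-identical sequence, and a short probe cannot tell such copies apart. Many families of the interferon response are of this kind. Type I interferons act on promoters that hold the interferon-stimulated response element (ISRE), whereas interferon gamma also acts through the gamma-activated site (GAS). The products include guanylate-binding proteins (Gbp) and immunity-related GTPases (IRG, among them Tgtp, Irgm and Igtp), which act on the membranes around intracellular pathogens, and the Oas1 enzymes, which make 2-5A from ATP upon binding double-stranded RNA. Fat progenitors, like most cells, can respond to interferon.

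The promoters of 3 pairs of genes that share a cluster are shown first, since the 2 copies of each pair were read as 1 value and all 3 clusters were among those with the largest differences. The windows run from 250 bases before to 50 bases after the annotated start (RefSeq, GRCm38.p6), 5′ to 3′ on the gene's strand, and capitals mark the letters GAAANNGAAA, the core of the ISRE, sought on both strands. Where 2 matches overlap, the capitals cover both.
Oas1a, chr5:120907476-120907775, minus strand: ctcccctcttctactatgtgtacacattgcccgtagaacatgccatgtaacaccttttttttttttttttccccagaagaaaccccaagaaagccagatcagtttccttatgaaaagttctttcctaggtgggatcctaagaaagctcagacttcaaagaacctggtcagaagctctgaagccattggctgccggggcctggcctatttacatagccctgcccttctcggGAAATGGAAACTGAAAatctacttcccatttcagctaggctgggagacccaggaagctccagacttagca
Oas1g, chr5:120887564-120887863, minus strand: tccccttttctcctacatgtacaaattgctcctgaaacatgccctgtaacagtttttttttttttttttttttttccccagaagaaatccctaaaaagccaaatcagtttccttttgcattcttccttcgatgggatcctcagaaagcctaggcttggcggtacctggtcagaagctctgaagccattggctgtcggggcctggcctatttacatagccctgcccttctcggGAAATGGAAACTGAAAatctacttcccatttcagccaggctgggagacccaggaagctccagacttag
Tgtp1, chr11:48992197-48992496, minus strand: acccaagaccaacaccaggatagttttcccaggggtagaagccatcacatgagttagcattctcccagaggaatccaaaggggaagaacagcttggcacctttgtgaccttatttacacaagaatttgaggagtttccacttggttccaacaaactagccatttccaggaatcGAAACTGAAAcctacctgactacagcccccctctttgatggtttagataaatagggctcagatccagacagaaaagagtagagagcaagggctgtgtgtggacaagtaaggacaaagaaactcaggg
Tgtp2, chr11:49064163-49064462, minus strand: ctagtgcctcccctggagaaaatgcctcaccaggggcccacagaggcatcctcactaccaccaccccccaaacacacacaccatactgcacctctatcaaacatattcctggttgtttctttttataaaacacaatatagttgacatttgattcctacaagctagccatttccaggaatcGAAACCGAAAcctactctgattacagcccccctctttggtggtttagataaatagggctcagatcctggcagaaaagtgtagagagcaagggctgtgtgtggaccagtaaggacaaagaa
Igtp, chr11:58199306-58199605, plus strand: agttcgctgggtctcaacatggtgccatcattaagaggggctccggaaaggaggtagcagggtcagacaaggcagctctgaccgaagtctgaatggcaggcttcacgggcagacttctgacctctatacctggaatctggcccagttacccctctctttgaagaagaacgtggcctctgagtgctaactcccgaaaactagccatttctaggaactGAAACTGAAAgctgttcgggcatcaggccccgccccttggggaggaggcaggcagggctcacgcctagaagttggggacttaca
Irgm2, chr11:58214727-58215026, plus strand: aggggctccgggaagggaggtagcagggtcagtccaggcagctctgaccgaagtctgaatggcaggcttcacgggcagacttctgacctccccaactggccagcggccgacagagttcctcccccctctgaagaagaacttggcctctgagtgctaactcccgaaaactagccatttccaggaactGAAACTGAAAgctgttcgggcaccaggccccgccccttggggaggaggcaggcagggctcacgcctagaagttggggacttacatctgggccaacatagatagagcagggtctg
Counted from the annotated start, the matches began at bases -20 and -14 in Oas1a and at -18 and -12 in Oas1g, in windows that were 85.3% identical over their alignment. The match began at -77 in Tgtp1 and at -70 in Tgtp2, in windows that were 67.0% identical. In Igtp and Irgm2 it began at -34 and -64, with 72.8% identity between the windows. The windows of Apol9a and Apol9b, another pair read as 1 value, were 86.3% identical and held 2 overlapping matches each. Those of Gbp2 and Gbp2b, with 1 match each, were 43.6% identical, so a common cluster did not always go with like promoters. Apol7b and Apol7e had windows that were 96.1% identical, with 0 and 2 matches. A match is a description of the letters in the window and does not show binding.

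HBC were compared with LBC to ask which genes differ between cells that bind sFNDC4 strongly and weakly. A cluster was called when limma's Benjamini-Hochberg adjusted p over all 35556 clusters was under 0.05 and the fold on the scale of log2(intensity + 16) was above 1.5. By this rule 68 shared clusters (4.19%) differed, 49 (3.02%) higher and 19 (1.17%) lower in HBC, and 1553 were not called. Over all clusters of the array 2.82% were called, 1.88% higher and 0.942% lower, and among clusters with 1 symbol 3.69% were called, 2.49% higher and 1.2% lower. The share called among shared clusters was thus above that over the whole array and near that over clusters with 1 symbol. The median log2 fold change was -0.04 over the shared clusters and -0.07 over all clusters. In all 68 called clusters the 3 arrays of a group lay on 1 side of the other 3, which also held for 30.2% of all clusters on the array. Of the shared clusters 142 (8.76%) had HBC wholly above LBC and 297 (18.3%) HBC wholly below, beside 8.21% and 22.0% of all clusters. Without the fold threshold 141 shared clusters passed, 75 higher and 66 lower, beside 8.56% of all clusters (3.77% higher and 4.8% lower).

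**Figure D1:**
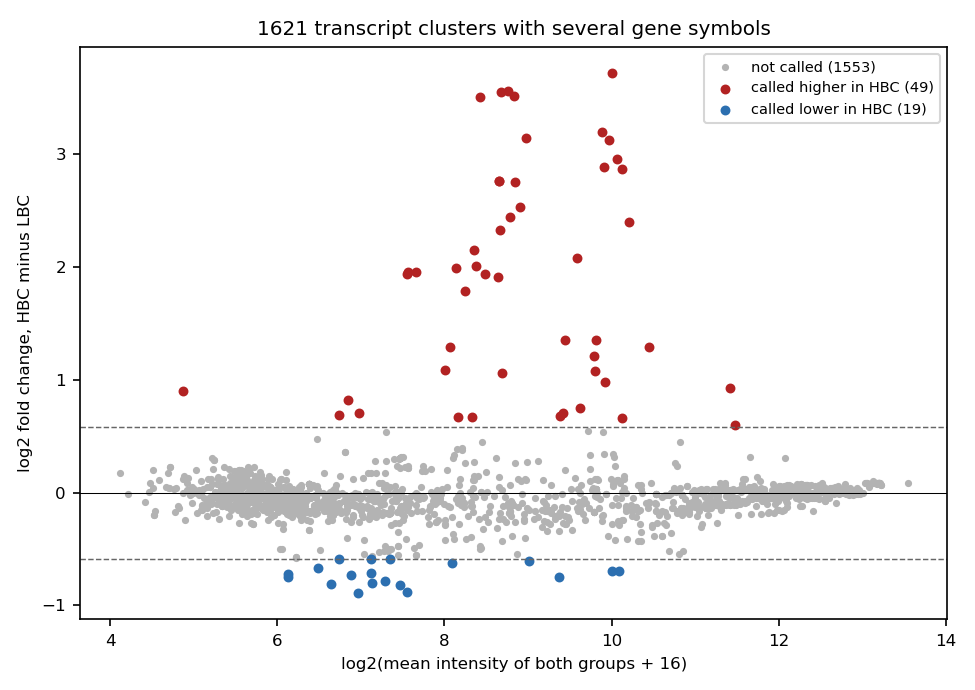
Each point is 1 of the 1621 shared clusters; the x axis is log2 of the mean intensity of both groups + 16 and the y axis the log2 fold change, HBC minus LBC, with dashed lines at the 1.5-fold threshold. The 49 clusters called higher (red) reached 3.72, whereas the 19 called lower (blue) lay between -0.89 and -0.59.

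The rises were larger than the falls. Among the 49 clusters called higher the log2 fold change ran from 0.60 to 3.72, with 36 above 1, that is past 2-fold, and 8 above 3. Past 2-fold were 1.1% of all clusters, 0.922% higher and 0.18% lower. Among the 19 called lower it ran from -0.89 to -0.59, and none passed 2-fold. A reference for dim signal was taken from the 1035 clusters of single olfactory receptor genes, which lay between 13.9 and 83.5 (10th to 90th percentile of mean intensity). The LBC mean of 11 of the clusters called higher and the HBC mean of 7 of those called lower lay at or below 83.5, so the size of those differences is less certain. In the clusters called higher, HBC replicate 2 was the highest HBC array in 44 of 49 and HBC replicate 3 the lowest in 46, and LBC replicate 3 was the lowest LBC array in 31. The part of this shift within groups in the results was not tested. Leaving out any 1 array gave 46 to 50 clusters called higher, which does not measure that part.

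Interferon-related families made up most of the rises. Of 60 shared clusters with a symbol of such a family, 32 (53.3%) rose in HBC and none fell, beside 1.88% and 0.942% of all clusters. The median log2 fold change of the 60 was 0.68. The other 28 were not called. Among those 28, 21 were clusters of the interferon ligands themselves. The count is 16 of 25 clusters when a cluster enters a family only if all of its symbols belong to it, since many of these clusters also list predicted genes. The families were listed with earlier results of these data known. Of the 32 clusters, 12 came from linked clusters of Csprs, Sp100, Sp110 and Sp140, so the 32 are not separate measurements.

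The 2-5A synthetase cluster had the largest log2 fold change of all shared clusters on the scale of intensity + 16, while by the ratio of mean intensities, of 14.5, it came after 3 clusters of Csprs (15.1 to 15.7). The cluster of Oas1a and Oas1g (10533246) read 1887, 2147 and 1650.2 on HBC replicates 1 to 3 and 153, 147 and 92.6 on LBC replicates 1 to 3. All HBC arrays stood far above the LBC arrays, with a log2 fold change of 3.72 ± 0.17 (SE; limma, adjusted p = 3.9e-06). Oas1a also had a cluster of its own, with a log2 fold change of 3.28, at 852 ± 74.0 in HBC and 74.4 ± 17.1 in LBC (SD, n = 3 arrays each), whereas Oas1g was read through the shared cluster alone.

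The guanylate-binding proteins were read by 2 shared clusters, and both rose. The cluster of Gbp4, Gbp6, Gbp8, Gbp9, Gbp10 and Gbp11 (10531994) read 852, 1079 and 733 in HBC and 99.4, 99.9 and 61.8 in LBC, with a log2 fold change of 3.14 ± 0.18 (SE; limma, adjusted p = 1.1e-05). That of Gbp2 and Gbp2b (10496592) read 1177, 1474 and 1023 in HBC and 308, 312 and 215 in LBC, with a log2 fold change of 2.08 ± 0.17 (SE; limma, adjusted p = 8.1e-05). Clusters of single Gbp genes gave log2 fold changes of unlike size. The log2 fold change was 3.23 for Gbp11, 2.44 for Gbp4, 2.12 for Gbp8 and 2.11 for Gbp9, all called, beside 3.14 for the cluster they share. Gbp2b alone changed by 0.73, at 87.8 ± 10.2 in HBC and 46.7 ± 9.95 in LBC (SD, n = 3), beside 2.08 for the cluster it shares with Gbp2. The LBC means of these own clusters ran from 33.2 for Gbp11 to 81.1 ± 29.9 for Gbp9, and that of Gbp8 was 80.3 ± 49.2. All lay below 83.5, so whether members of 1 shared cluster changed unlike each other is less certain.

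All 6 shared clusters of the immunity-related GTPases rose. The 2 clusters of Tgtp1 and Tgtp2 had log2 fold changes of 3.20 and 3.13. The first (10385518) read 1674, 2113 and 1289.9 in HBC and 204, 192 and 117 in LBC, and the second (10385533) read 1773, 2191 and 1374 against 216, 212 and 137. Neither gene had a cluster of its own, so which copy was higher cannot be told apart. Irgm2 and Igtp (10376326) read 1688, 1935 and 1416 in HBC and 249, 241 and 155 in LBC, with a log2 fold change of 2.89 ± 0.18 (SE; limma, adjusted p = 1.4e-05). Ifi47, another IRG, shared a cluster with its neighbour Olfr56, an olfactory receptor gene, and this cluster (10375515) read 803, 959 and 643 in HBC and 138, 131 and 105 in LBC, a log2 fold change of 2.53. It was the only 1 of 100 shared clusters with an olfactory receptor symbol that was called. The smallest rise was that of the clone-named pair 9930111J21Rik1 and 9930111J21Rik2, at 0.67 in both of its clusters, and neither cluster was called without HBC replicate 2.

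Csprs, Sp100, Sp110 and Sp140 were read by 13 shared clusters, of which 12 rose. Sp100, Sp110 and Sp140 encode chromatin-associated proteins of nuclear bodies, and Csprs belongs to a repeated block of genes that arose next to Sp100. The 4 clusters of Csprs, which also list the predicted genes Gm2666, Gm7592 and Gm7609, had log2 fold changes from 3.51 to 3.56. The brightest of the 4 (10347925) read 792, 981 and 689 in HBC and 51.1, 71.7 and 48.4 in LBC. In LBC all 4 lay within the range of olfactory receptor clusters, and in HBC all 4 lay well above it. The cluster of Sp100 with the predicted genes (10356262) started from a higher level in LBC, at 379, 386 and 319, and reached 1937, 2251 and 1752 in HBC, a log2 fold change of 2.40, beside 2.83 for the own cluster of Sp100. Among 8 clusters linked by Sp110 and Sp140, 7 rose, from 1.06 to 2.76, and the cluster of Sp140 and A530032D15Rik alone stayed under the fold threshold, at 366, 405 and 388 in HBC and 270.3, 276 and 289 in LBC (log2 fold change of 0.45). The 2 clusters of Gm15753 and Sp110 had identical values on every array and thus count as 1 measurement.

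Antigen presentation genes moved in part. MHC class I molecules carry peptides to the cell surface for T cells, and 4 of their 7 shared clusters rose. That of H2-T23 and H2-T-ps (10450682) read 1302, 1466 and 1067 in HBC and 474, 499 and 488 in LBC, with a log2 fold change of 1.35. Both clusters of the classical molecules H2-K1 and H2-D1 rose, by 1.35 (10450075; 988, 1204 and 774 in HBC and 392, 378 and 345 in LBC) and by 1.29. H2-T9, H2-T10 and H2-T22 shared a cluster that rose by 1.21, while the own cluster of H2-T10 changed by 0.61. The clusters of H2-Q1 and H2-Bl, of H2-Q6 and H2-Q8, and of H2-T3 and H2-T18 were not called, with log2 fold changes of 0.26, 0.24 and -0.14. The only shared cluster of MHC class II, of H2-DMb1 and H2-DMb2, read 82.1, 91.8 and 89.5 in HBC and 60.4, 59.6 and 55.0 in LBC (0.48), under the fold threshold. Psme2 and Psme2b, of a proteasome activator that shapes the peptides for MHC class I, rose by 0.66, as did the own cluster of Psme2 by 0.63.

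Further families of this group followed. The 4 shared clusters of apolipoproteins L all rose, those of Apol9a and Apol9b by 2.96 and 2.87 and those of Apol7b and Apol7e by 0.82 and 0.69. The brighter Apol9a and Apol9b cluster (10430174) read 1973, 2145 and 1704 in HBC and 269, 275 and 210 in LBC. Trim5 and Trim12c, which belong to a family of antiviral restriction factors, rose in both of their clusters, by 1.94 and 1.91. The first (10566333), which also lists Trim12a, read 545, 593 and 513 in HBC and 137, 146 and 112 in LBC. The cluster of Trim30b and Gm38525, at 34.8 to 35.0, and that of the 3 Trim43 genes were dim in both groups and not called. Ifi204 and Ifi211, which encode PYHIN proteins that include nucleic acid sensors, started from a high level of 1944, 1843 and 1832 in LBC and reached 3546, 3800.4 and 3384 in HBC, a log2 fold change of 0.93.

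The genes of the interferons were not called. All 21 shared clusters of type I interferons, which held 15 distinct sets of values, lay between -0.19 and 0.32 (log2 fold change, median of 0.24). Those listing the alpha genes changed by -0.07 to -0.02. The highest values came from clusters of Ifnz with predicted genes, of which 6 with identical values read 181, 178 and 183 in HBC and 139, 136 and 154 in LBC, so the groups did not overlap while the difference stayed under the fold threshold.

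**Figure D2:**
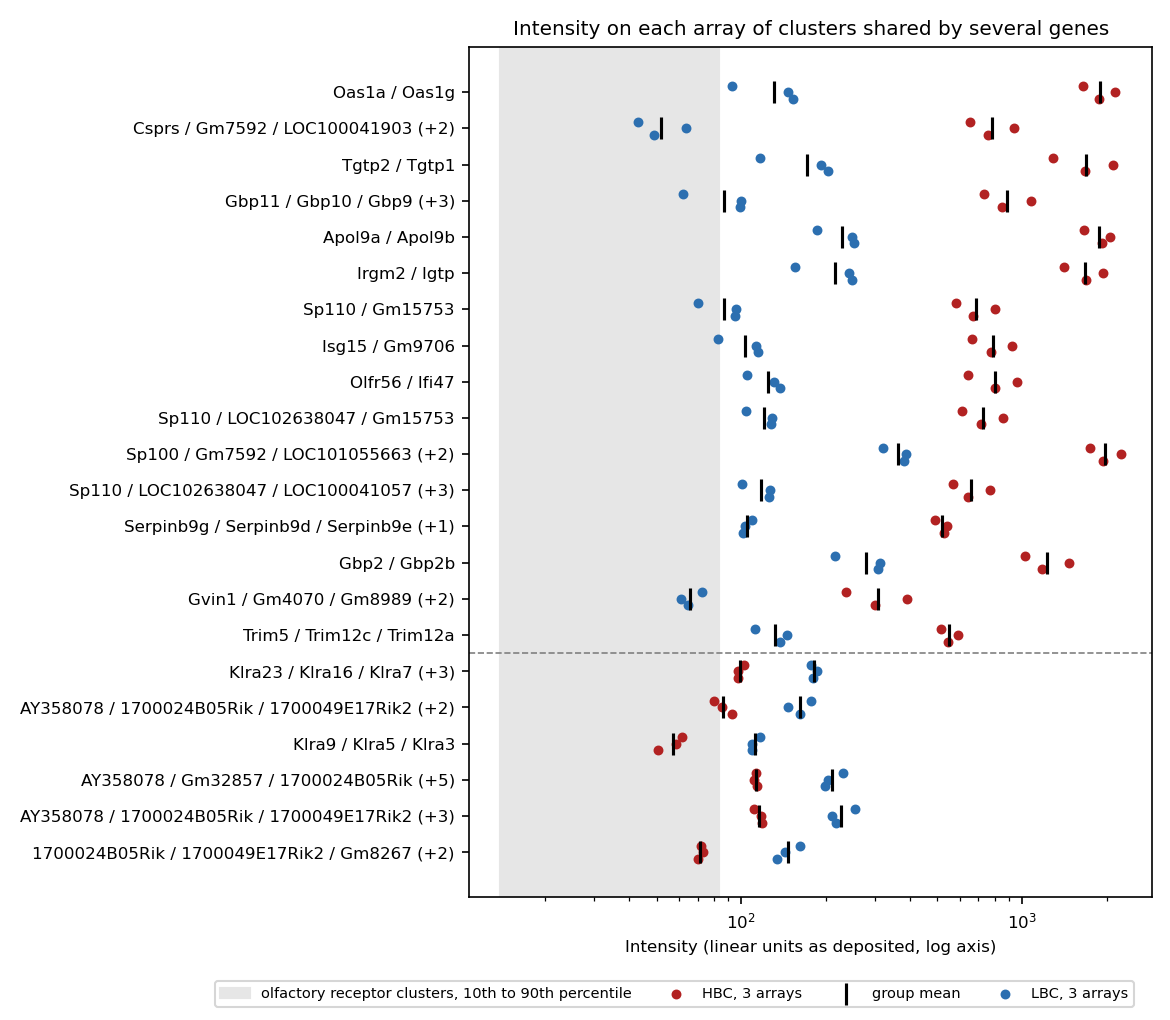
Intensity on each of the 6 arrays (log axis) of 16 clusters called higher and, under the dashed line, 6 called lower, 1 cluster per set of symbols; points are arrays, black bars group means, and the grey band the 10th to 90th percentile of single olfactory receptor clusters. HBC (red) and LBC (blue) do not overlap in any of the 22 clusters shown. They were taken from the 68 called clusters, none of which has overlapping groups, and 30.2% of all clusters have none either.

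Outside these families 17 clusters rose, several of which list genes that are also known from the interferon response. Isg15, a ubiquitin-like modifier, shared a cluster with the predicted gene Gm9706 (10451287) that read 776, 923 and 662 in HBC and 115, 113 and 82.5 in LBC, a log2 fold change of 2.75. The 3 clusters of Gvin1, a very large interferon-inducible GTPase, with predicted genes of its kind rose by 1.79 to 1.96. The 3 clusters of Serpinb9d, Serpinb9e, Serpinb9f and Serpinb9g, relatives of the granzyme B inhibitor Serpinb9, rose by 1.99 to 2.15, and had a small spread between arrays. The first (10404479) read 528, 541 and 488 in HBC and 101, 103 and 109 in LBC (limma, adjusted p = 1.7e-06). The own clusters of Serpinb9e and Serpinb9d rose by 1.84 and 1.03, the latter from 16.2 ± 4.84 to 49.5 ± 3.97 (SD, n = 3), within the dim range. C1ra and C1rb, proteases of the first complement component, rose by 1.08, beside 1.17 for the own cluster of C1ra.

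The other rises were of mixed kinds. Zfp955a and Zfp955b, zinc finger genes, rose by 0.98 (10443940; 1250.4, 1325 and 1233 in HBC and 585, 619 and 704 in LBC), the only 1 of 43 shared clusters of zinc finger proteins that was called. Loxl2, which cross-links collagen, shared a cluster with Gm21451 that rose by 0.75. Rtl8a and Rtl8b, genes of retrotransposon origin, rose by 0.71 and 0.68 in 2 clusters. The cluster of Pakap and Palm2 rose by 0.71, whereas that of Pakap and Akap2 changed by -0.23, although both list Pakap. Of 5 clusters linked by Eif1a and its copies only the dimmest was called, that of Gm4027 and BB287469, at 34.6, 17.2 and 15.4 in HBC and 0.771, 5.84 and 6.26 in LBC. These LBC values lie below the olfactory range, and the call was lost with an added 1 or 50, with a floor at 16 and with the methods' t-test. The cluster of the proliferin genes Prl2c2, Prl2c3 and Prl2c4 was one of the brightest called, at 3515, 3346 and 3307 in HBC and 2146, 1938 and 2676 in LBC, but its log2 fold change of 0.60 was at the threshold, and the call was lost without HBC replicate 1 or 2 and without LBC replicate 1 or 2.

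The falls came from other families. Killer cell lectin-like receptors (Klra, the Ly49 receptors) are known from natural killer cells, and 3 of their 4 shared clusters were lower in HBC. That of Klra3, Klra5 and Klra9 (10548532) read 50.4, 58.7 and 61.8 in HBC and 109, 109.6 and 117 in LBC, with a log2 fold change of -0.81. That of Klra1, Klra4, Klra7, Klra16, Klra23 and Klra13-ps (10548455) read 97.8, 97.6 and 102 against 180.4, 186 and 178 (-0.78). Another cluster, with 7 Klra symbols, fell by 0.72 on the log2 scale, and the remaining one, at -0.51, was under the fold threshold. The cluster with 7 symbols lay within the dim range, at 36.8 in HBC and 70.9 in LBC, and its call was lost with an added 50. Own clusters differed in size, at -1.24 for Klra8 and -0.75 for Klra6, which were called, and at -0.32 for Klra3 and -0.03 for Klra5, which were not. Those of Klra8 (23.9 in HBC and 78.2 in LBC) and Klra5 (28.4 and 29.9) lay within the dim range. The size of their changes is thus less certain. Of 10 leukocyte markers with a cluster of their own none was called, and Ptprc, Adgre1, Lyz2 and Cd74 lay within the dim range, while the other 6 lay above it, among them Cd68 at 174 in HBC and 188 in LBC and Itgam at 159 and 189. The summed intensity of the 10 markers was 877 to 934 in HBC and 1019 to 1100.4 in LBC, and its part in the Klra difference was not tested.

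Most other falls came from sets of predicted or clone-named genes with many near-identical copies. Of 7 clusters linked by 1700024B05Rik, 1700049E17Rik1 and 1700049E17Rik2, 4 were lower and all 7 had negative log2 fold changes, from -0.89 to -0.39. The first (10419162) read 70.1, 72.9 and 72.0 in HBC and 134, 144 and 162 in LBC (limma, adjusted p = 0.00025). Of 8 clusters linked by Gm17026 and 1700001F09Rik, 3 were lower, and all 8 lay between -0.73 and -0.50. All 3 calls were lost with an added 50, those at -0.71 and -0.67 also with array weights, and the latter also without HBC replicate 3. In the largest called set, 18 clusters linked by Gm3696, Gm3558 and other predicted genes, every log2 fold change was negative, and 3 were called, at -0.59 each, only just past the threshold. The calls of these 3 were lost with each of the 3 other scalings and without HBC replicate 3 or LBC replicate 3. Since clusters of 1 set list the same genes, their common sign is not independent evidence. C130071C03Rik with 2810049E08Rik was dimmer, at 38.0, 34.7 and 35.1 in HBC and 69.3, 71.8 and 73.3 in LBC (-0.75).

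Some falls were of known genes at a clear signal. Ass1, which makes argininosuccinate in arginine synthesis, shared 2 clusters with Gm5424, and the brighter (10363541) read 815, 856 and 786 in HBC and 1250.1, 1284 and 1464 in LBC, with a log2 fold change of -0.69 ± 0.09 (SE; limma, adjusted p = 0.0013). Neither Ass1 nor Gm5424 had a cluster of its own. The cluster of Schip1 and the read-through gene Iqschfp fell by 0.61 on the log2 scale, whereas that of Iqschfp and Iqcj changed by -0.03. The cluster of Wdr77, a partner of the arginine methyltransferase PRMT5, and Ovgp1 read 197, 185 and 216 in HBC and 294, 312 and 337 in LBC (-0.62), while the own cluster of Wdr77 changed by -0.35 and was not called. The calls of Wdr77 with Ovgp1 and of Schip1 with Iqschfp depended on the settings, and were lost in 7 and 8 of the alternatives besides a fold above 2. Both were lost without LBC replicate 3, and that of Wdr77 with Ovgp1 also without HBC replicate 2.

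**Figure D3:**
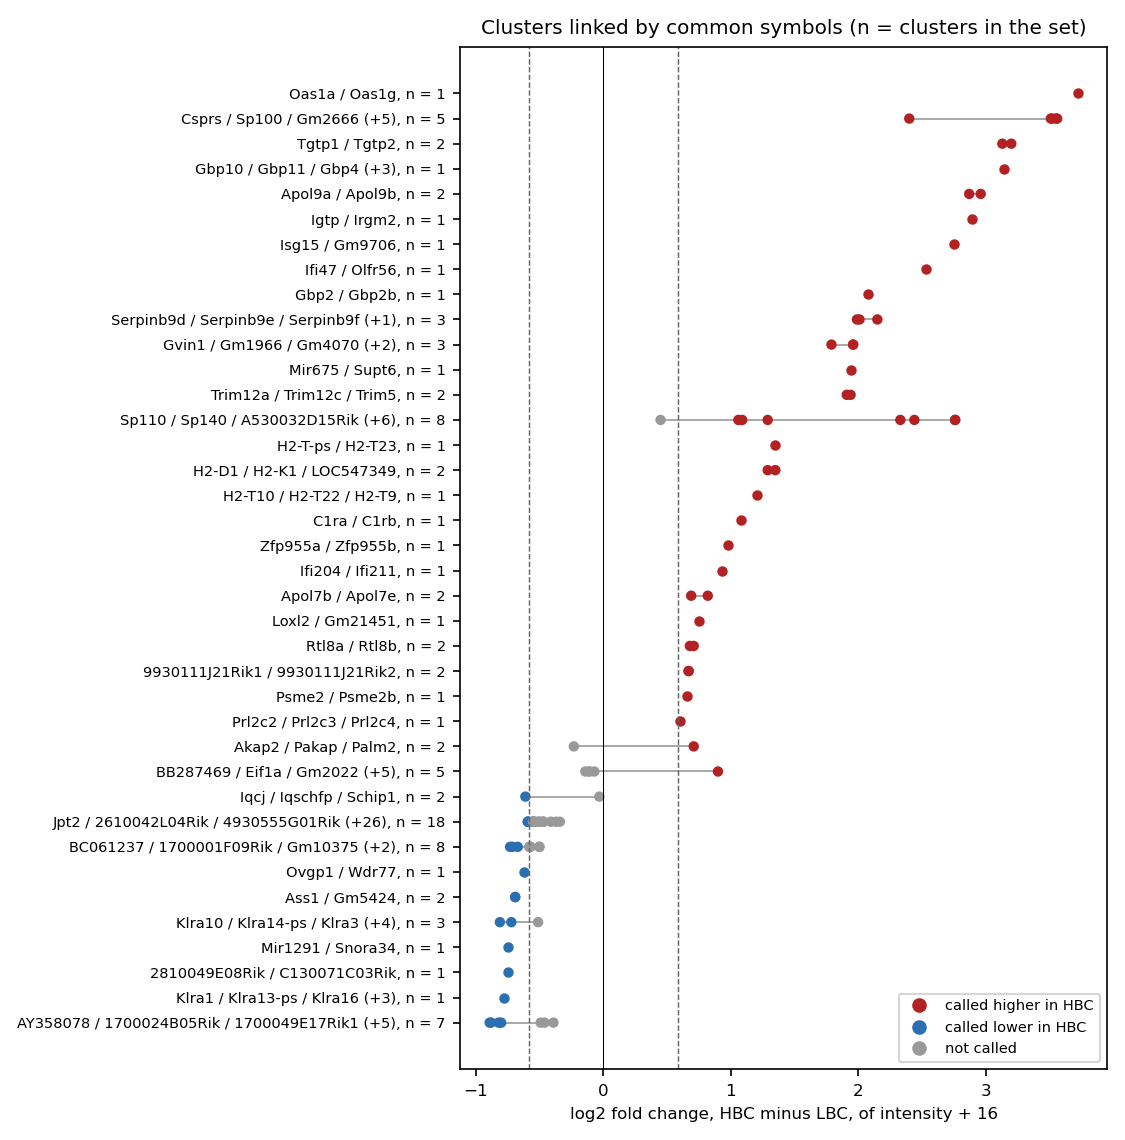
Each line is 1 of the 38 sets of clusters linked by common symbols that hold a called cluster; points are clusters at their log2 fold change (HBC minus LBC, from intensity + 16), red or blue where called and grey where not, with dashed lines at the 1.5-fold threshold. No set held calls in both directions, and 17 of the 19 sets with several clusters had 1 sign throughout.

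Linking clusters by any common symbol gave 593 sets, 307 of them of 1 cluster, and the calls fell in 38 sets, 28 higher and 10 lower. Of the 19 called sets with several clusters, 11 had every cluster called, among them the sets of Csprs and Sp100, of Tgtp1 and Tgtp2, and of Gvin1. With 1 cluster kept per set of symbols (800 clusters), 54 were called, 37 higher and 17 lower. The counts were also taken by how the genes lie in the genome, as a description. Over all clusters 1.88% were higher and 0.942% lower. Of 608 clusters whose genes lie within 1 Mb of each other on 1 chromosome without overlap (RefSeq, GRCm38.p6), 31 (5.1%) were higher and 4 (0.658%) lower. Of 345 whose genes span more than 1 Mb of 1 chromosome, 8 (2.32%) were higher and 9 (2.61%) lower. Of 536 whose genes lie on more than 1 chromosome, 9 (1.68%) were higher and 4 (0.746%) lower, both near the shares over all clusters. Of 113 whose genes overlap, 0 were higher and 2 (1.77%) lower. Of 136 clusters that list predicted or clone-named genes only, 3 (2.21%) were higher and 9 (6.62%) lower. Clusters were also repeated on the array, since 259 (16%) of the shared clusters had values identical to those of another cluster, against 0.592% of clusters with 1 symbol.

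Many large families with other roles held no called cluster. None of 239 shared clusters of ribosomal proteins was called, with log2 fold changes from -0.38 to 0.08 and a median of 0.01. None was called among 66 clusters of vomeronasal receptors, 47 of histones, 58 of immunoglobulin and T cell receptor segments, 59 of Mage and Prame, 35 of Xlr, Slx and Sly and 19 of keratins. Over all clusters 2.82% were called, so few or no calls are to be expected in families of 19 to 66 clusters. In all, 15 of 40 listed families with a shared cluster held a call.

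The microRNA symbols needed a closer look. Of 61 shared clusters with a microRNA symbol, 1 was higher and 1 lower. The mature sequences of their microRNAs (RefSeq, GRCm38.p6), with the seed at bases 2 to 8 in capitals, were as follows, and no 2 share a seed.
mmu-miR-675-5p: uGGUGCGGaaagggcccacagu
mmu-miR-675-3p: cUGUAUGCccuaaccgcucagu
mmu-miR-1291: aUGGCUCUuacugaagacuagcaguu
Mir675 shared its cluster with Supt6, the gene of a transcription elongation factor (10569341). It read 286, 297 and 264 in HBC and 51.9, 66.8 and 68.1 in LBC, a log2 fold change of 1.94 ± 0.10 (SE; limma, adjusted p = 6.9e-06). The own cluster of Supt6 was bright and did not follow, at 1011 ± 36.2 in HBC and 1053 ± 136 in LBC (SD, n = 3; log2 fold change of -0.05). The hairpin of Mir675, of 84 bases, lies inside H19, an imprinted long non-coding RNA from which it is processed, so the probes cannot tell the hairpin from its host. The annotation used here has no cluster under the symbol H19. The cluster of Mir1291 and Snora34 read 482, 443 and 498 in HBC and 697, 773 and 973 in LBC (-0.75). This value cannot be given to 1 gene either, since the hairpin shares 73 bases with Snora34 and lies inside Kansl2. The array reads long and precursor RNA, so no value here is a level of a mature microRNA.

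Genes that have no cluster of their own can be read here alone. Of the 2024 symbols listed by shared clusters, 1397 had no cluster with 1 symbol. Of the 135 symbols of called clusters, 107 had none, 63 in clusters called higher and 44 in clusters called lower. Tgtp1, Tgtp2, Oas1g, Csprs, Apol9a, Apol9b, Isg15, Igtp, Irgm2, H2-K1, H2-D1 and Ass1 are of this kind.

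For the other 627 genes the shared cluster could be set beside the gene's own. In 42 of 1730 pairs the shared cluster was called. In 27 of these the own cluster was called in the same direction, in 15 it was not called, and in none was it called in the opposite direction. The log2 fold changes of shared and own clusters had a Pearson correlation of 0.74 over the 1730 pairs and of 0.23 over the 1675 pairs in which neither was called, as a description, since pairs share genes and clusters and both values come from the same arrays. In 13 pairs the own cluster was called and the shared one was not. Tapbp, which loads peptides onto MHC class I, rose by 0.98 in its own cluster, at 2066 ± 242 in HBC and 1037 ± 49.0 in LBC (SD, n = 3), but its 2 clusters shared with the ribosomal gene Rps3a1 changed by -0.10 and -0.11. Aff3 was higher by 1.10 in its own cluster, while the cluster it shares with Hnrnph3 changed by -0.40. Cdh11, a cadherin of mesenchymal cells, rose by 0.91 in its own cluster and changed by -0.02 to 0.02 in 3 shared ones. The own cluster of Olfr1431 rose by 0.95, while the cluster it shares with other olfactory receptor genes changed by -0.10. Some other pairs, with a gene of the same family, kept the direction at a smaller size. Sp140 and A530032D15Rik rose by 1.16 and 0.95 in their own clusters and had 0.45 in the cluster they share, Klra8 had -1.24 against -0.51, and Tubb2b had -0.93 against -0.27 in a cluster shared with Tubb2a. The own cluster of Klra8 lay within the dim range.

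**Figure D4:**
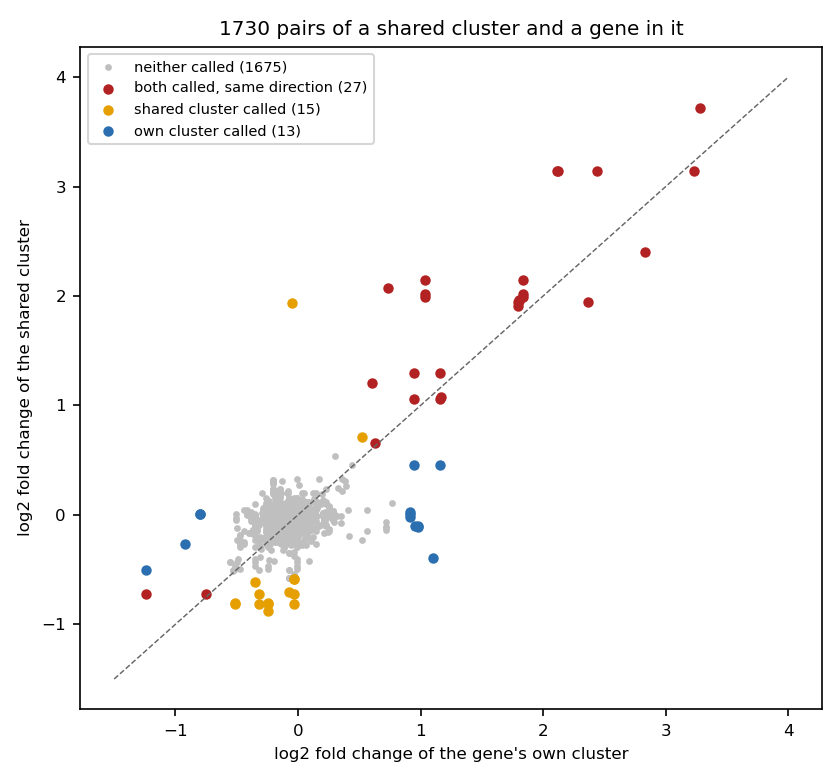
Each point is 1 of 1730 pairs of a shared cluster (y axis, log2 fold change, HBC minus LBC) and the own cluster of a gene it lists (x axis); the dashed line marks equal change. The 27 pairs called in both (red) share their direction but not always their size. An example is Gbp2b (2.08 shared against 0.73 own), whose own cluster was dim in LBC, at 46.7. Mir675 with Supt6 lies far above the line (1.94 against -0.05), and no pair was called in opposite directions.

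Promoters of the genes in called clusters were read in the same windows as above. A promoter was available for 50 of 82 genes of clusters called higher and for 39 of 53 of clusters called lower. For clusters not called it was available for 1329 of 1897 genes, and the remaining genes could not be read. GAAANNGAAA was found in 20 of 50 genes with a promoter from clusters called higher (40.0%), in 1 of 39 from clusters called lower (2.56%) and in 80 of 1329 from clusters not called (6.02%), beside 3.99% of all 27025 genes. Isg15 had 3 matches and Trim5, Trim12a, Trim12c, H2-T23, H2-T22, Ifi211 and Gm1966 had 1 each. The genes with none in this window included Serpinb9d, Serpinb9e, Serpinb9f, Serpinb9g, Sp100, Sp110, Sp140, C1ra and C1rb. They also included H2-K1, H2-D1, Ifi47, Psme2, Psme2b and 9930111J21Rik2. For the GAS letters, TTCNNNGAA, 8 of the 50 genes held a match, and the shares of the other 3 sets were 7.69%, 11.2% and 9.55% in the same order. Copies of a gene share promoter sequence, so these genes are not independent counts.

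The labelled cell type could be checked with clusters of 1 symbol. All 15 markers of preadipocytes and fibroblasts lay above the dim range, among them Pdgfra, Col1a1 and Vim, and 3 of them (Eng, Col3a1 and Cebpa) were higher in HBC. Of 5 markers of mature adipocytes, Adipoq, Lep and Cidec lay within it, and Plin1 (136 in HBC and 137 in LBC) and Retn (187 and 120.3) lay above it, none of them called. Of 5 endothelial markers 4 lay within it and 1 above, and of 4 epithelial markers 1 within and 3 above, none called. Lying above this range thus does not by itself mark a cell type. The median intensity was 2286 over the preadipocyte and fibroblast list and 117 over the epithelial list. With LBC replicates 2 and 3 left out together, because of their source name, 54 of the 68 calls remained, 28 of the 32 in interferon-related families were called, and the clusters called lower were 12 in number. The 14 lost calls were those of the 3 Gm3696 clusters, 1 cluster of the Gm17026 set, Wdr77 with Ovgp1, Schip1 with Iqschfp, Mir1291 with Snora34, Psme2 with Psme2b, both clusters of 9930111J21Rik1, 1 of Apol7b and Apol7e, 1 of H2-K1 and H2-D1, Pakap with Palm2, and Gm4027 with BB287469. The fit then takes the lone LBC array to vary like the HBC arrays.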

How the data were processed

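Total RNA of 3 HBC and 3 LBC samples was hybridised to 6 Affymetrix mouse gene arrays. The authors isolated RNA with Trizol and made the deposited values, which are intensities on a linear scale, with Affymetrix Expression Console; its version, background correction, summary method and normalization are not stated in the sources at hand. The methods name version 2.0 of the array, while cluster identifiers fit an older design's annotation. The number of arrays limits the precision. Shared clusters are those with more than 1 symbol in that annotation, and 2007 of their 2032 gene IDs were found in RefSeq (GRCm38.p6), which was used for names, neighbours and promoters.

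Intensities were transformed as log2(intensity + 16), since the planned test needed log values, so changes of dim clusters are understated. The comparison of HBC with LBC used lmFit and eBayes of limma 3.58.1 (R 4.3.3) over all 35556 clusters, without a replicate block, with Benjamini-Hochberg adjustment over all clusters. Clusters were called at adjusted p below 0.05 with more than 1.5-fold change. The prior had 4.78 degrees of freedom, beside 4 residual ones. Clusters entered a family when at least 1 symbol matched. A gene's own cluster is its brightest by mean log2 value. In a simulation of HBC versus LBC on 35556 clusters, 44% of 1.5-fold changes were called, 100% of 2-fold, 4-fold and 8-fold changes, and 11 of 35356 unchanged clusters. A true 1.5-fold change lies on the fold threshold itself, so its share is limited by that threshold. The noise was normal and independent for each cluster and array, without the shift within groups seen in the data.

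The shared clusters, families and lists were chosen with earlier results of these data known. Named are up to 4 called clusters of the Gbp, IRG, Oas and Csprs families, up to 2 of other families, the 10 largest rises and falls, the own clusters of their genes, and some members not called; further clusters were named after their values were seen. The alternatives were an added 1 or 50, a floor at 16, quantile, cyclic loess and median scaling, filters at an intensity of 100, clusters with symbols only, the methods' t-test, a trended and robust prior, array weights, a replicate block, other thresholds, 1 cluster per set of symbols, and leaving out each array. Leaving out LBC replicates 2 and 3 together, 1 cluster per set of identical values, and the olfactory reference were chosen after seeing the data. Promoters were aligned with Biopython 1.88.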

Additional observations from a re-analysis of the deposited data

How the results depend on the processing

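No alternative turned the direction of any of the 33 clusters named by rule that it tested. The count of calls moved most with the thresholds. Without a fold threshold 141 clusters were called, 75 higher and 66 lower, 171 genes were read through shared clusters alone and 42 pairs of shared and own clusters were called alike, whereas a fold above 2 left 36 clusters, of which 0 were lower, and 44 such genes. With a mean intensity above 100 in both groups, which left fewer clusters tested, 42 were called, 8 of them lower, and 12 pairs were called alike. The clusters called lower were 31 with an added 1, 9 with an added 50 and 29 with a floor at 16. Their number thus moved with the treatment of dim values, and it was 14 with quantile and with cyclic loess scaling. Counting a cluster in an interferon-related family only when all its symbols belong to it gave 16 of 25 clusters. Leaving out 1 array at a time gave 64 to 75 called clusters, 46 to 50 higher and 14 to 27 lower, and 30 to 32 in interferon-related families. The replicate numbers did not pair the arrays (correlation of deviations of 0.003, -0.129 and -0.258 between arrays of the same number), and with a replicate block 68 clusters were called, with all 68 calls kept. Quantile, cyclic loess and median scaling each kept 63 of the 68 calls, and moved the median of all clusters from -0.071 to -0.02, -0.001 and 0.001. The 5 calls lost with each were those of the called Gm3696 clusters, Schip1 with Iqschfp and Wdr77 with Ovgp1, all of them falls. The methods' t-test, adjusted in the same way, kept 55. In all, 47 of the 68 clusters (39 higher and 8 lower) were called under every alternative that tested them except a fold above 2.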
